A study of Mus musculus with 6 samples.

Results

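The nuclear-encoded subunits of the mitochondrial respiratory chain and of ATP synthase were described in mouse proximal tubular epithelial cells (PTECs) exposed to palmitic acid (PA). Genes were taken by name: Nduf genes of the a, b, c, s and v series, Sdha to Sdhd, genes starting with Uqcr, Cyc1, Cox4 to Cox8 genes and genes starting with Atp5, without pseudogenes and Ndufaf assembly factors. This gave 85 of the 24421 genes in the table, 37 in complex I, 4 in complex II, 9 in complex III, 18 in complex IV and 17 in complex V. The cells were immortalized wild-type mouse PTECs, kept for 6 hours with PA bound to bovine serum albumin (PA, 3 libraries) or with bovine serum albumin alone (BSA, 3 libraries), so that albumin was present in both groups. The comparison asks which transcripts differ when the cells take up a saturated fatty acid. The sources used here do not give the number of immortalized lines behind these libraries, nor whether replicates were separate cultures. The p-values therefore measure the spread between these libraries, which may be technical, and levels in a dish are not those of a tubule in the kidney.

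The respiratory chain sits in the inner mitochondrial membrane. Complex I takes electrons from NADH and complex II from succinate, both pass them to ubiquinone, complex III hands them on to cytochrome c, and complex IV reduces oxygen. Complexes I, III and IV move protons across the membrane, and complex V, the ATP synthase, uses that gradient to make ATP. The proximal tubule reabsorbs most of the filtered solute and is rich in mitochondria, which in this segment burn fatty acids. Each complex except complex II also holds subunits encoded by mitochondrial DNA. None of the mitochondrially encoded genes was analysed here.

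Values are RPKM, reads scaled to the length of the gene and the size of the library, so that levels can be compared between genes. Their total over all genes was not equal between libraries and was lower in every PA library, as given below. The libraries held 17679817 to 21568228 reads, and the 85 genes took 1.04% to 1.11% of the reads of a library. Of 18 genes listed as proximal tubule markers, 6 had a mean over 1 RPKM (Lrp2, Aqp1, Pax8, Krt8, Krt18 and Cdh16), while 11 had a mean under 0.5 RPKM and at most 0.264 RPKM in a library, among them Hnf4a and the transporters and brush border genes Slc34a1, Slc5a2, Slc22a6, Slc22a8, Slc9a3 and Anpep that define the differentiated segment. Most of the summed level came from Krt8 and Krt18, keratins of epithelia in general, which together had 557 to 591 RPKM in PA libraries and 684 to 732 RPKM in BSA libraries. The other 16 summed to 157 to 173 RPKM in PA libraries and 166 to 190.2 RPKM in BSA libraries. Over 1 RPKM were also 1 of 10 fibroblast markers, 1 of 8 endothelial markers, 3 of 10 immune markers and 2 of 14 markers of other nephron segments. Umod, Atp6v1g3, Tie1, Emcn and Lyz2 were listed at 0, and no list of other cells summed to more than 24.2 RPKM in a library. BSA replicate 3 stood apart from the other BSA libraries. The correlation of its deviations with the GC content of genes was −0.17, against 0.114 and 0.042 in BSA replicates 1 and 2 (across 11259 genes, which are not independent replicates). Fits without BSA replicate 3 and with the GC trend removed are given below. The part of the marker differences in the results was not tested.

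The promoter sequences of a few members are shown first, since the nuclear genes of the chain share no common location and are known to be driven in part through short elements bound by nuclear respiratory factor 1 (NRF1), ETS family factors such as GABP, and YY1. RefSeq gives 71 start-site windows (GRCm38.p6, 250 bases before to 50 after the start) for 66 of the 85 members. The NRF1 letters GCGCATGC, searched on both strands as every motif here, were in 10 of the 71 windows (14.1%), against 2.71% of all 32851 windows. The ETS letters CCGGAAG were in 22.5% of the members' windows, against 8.86% of all, and the YY1 letters AAGATGG in 14.1%, against 6.34%. The letters CACGTGA, the core of the CLEAR element bound by TFEB, were in 4 of the members' windows (5.6%), against 3.77% of all. Among members that fell with PA the shares were 10.5% for NRF1, 21.1% for ETS, 15.8% for YY1 and 5.3% for CLEAR over 19 windows, and among those that did not pass the test 16.7%, 25.0%, 14.6% and 6.2% over 48 windows. A match is a description of the letters and not a binding site. The windows of all genes include genes too low to test here, and no share was taken over tested genes alone. Whether the members differ from other expressed genes in these letters was not tested. Shown are Cox7b, a member that fell in every fit and holds none of these letters, Atp5l, a member that fell and holds 3 of them, and Ndufa6 and Cox6a1, members that did not pass and hold the NRF1 letters. Each stretch lies upstream of the start, outside the exons of GENCODE vM21, and is written 5′ to 3′ along the gene. Capitals mark the matched letters, and in Cox6a1 a match on one strand overlaps a match on the other. The window of Cox6a1 also holds the ETS letters, outside the stretch shown.
Cox7b, complex IV, chrX:106015600-106015699, plus strand: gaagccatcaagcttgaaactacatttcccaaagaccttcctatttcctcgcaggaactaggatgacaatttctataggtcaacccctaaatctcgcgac
Atp5l, complex V, chr9:44920752-44920992, minus strand: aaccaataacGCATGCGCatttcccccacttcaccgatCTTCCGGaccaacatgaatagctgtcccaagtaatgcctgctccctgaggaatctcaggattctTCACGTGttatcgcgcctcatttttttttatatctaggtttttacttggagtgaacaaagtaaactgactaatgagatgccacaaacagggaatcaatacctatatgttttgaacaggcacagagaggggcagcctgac
Ndufa6, complex I, chr15:82354323-82354389, minus strand: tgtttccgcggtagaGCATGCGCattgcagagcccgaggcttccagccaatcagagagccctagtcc
Cox6a1, complex IV, chr5:115348982-115349129, minus strand: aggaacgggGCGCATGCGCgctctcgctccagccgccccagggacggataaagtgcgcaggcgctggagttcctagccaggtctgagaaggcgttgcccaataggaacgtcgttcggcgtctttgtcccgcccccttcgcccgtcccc
The capitals in Atp5l are, from the left, the reverse complements of the NRF1, ETS and CLEAR letters, starting 240, 212 and 148 bases before the start. The capitals in Ndufa6 are the NRF1 letters on the other strand, starting 83 bases before the start, and those in Cox6a1 start 162 and 160 bases before it.

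In PA-treated PTECs, 20 transcripts of the respiratory chain were slightly lower, with at least 1 in each of the 5 complexes. Of 77 members high enough to test, 20 fell, none rose and 57 did not pass (26% lower and 0% higher). Over all 11671 genes tested, 9.52% were lower and 11.2% higher. The falls were small, with log2 fold changes of −0.10 to −0.27, and BSA levels were 1.075 to 1.207 times PA levels. A log2 fold change was negative in 71 of the 77 members, where 59.1% of all genes tested had a negative one, and the median of the members was −0.08, beside −0.04 over all genes tested. No member reached the study's threshold for differential expression, an adjusted p under 0.05 together with an absolute log2 fold change over 0.4, which 6.29% of all genes tested passed. The test was limma on log2(RPKM + 0.1), with Benjamini-Hochberg adjustment over the 11671 genes that had a mean of at least 0.5 RPKM, and the adjusted p-values of the 20 lay between 0.00462 and 0.0492. In bulk samples such as these, fewer cells of a type and less RNA per cell cannot be told apart. At an unadjusted p under 0.05, 35 members were lower and 0 higher, where 19.6% of all genes tested were lower and 16.2% higher.

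The groups were set apart in many members. All PA libraries were below all BSA libraries in 37 of the 77, where 22.3% of all genes tested had that order, and in 0 all PA libraries were above all BSA libraries, where 18.2% of all genes had that order. The median within-group SD of the members was 0.051 on the log2 scale, against 0.054 for all genes with a mean of at least 15 RPKM. Of the 57 members that did not pass, 54 had a 95% interval of the log2 fold change within 0.3 of 0. In the members with a mean over 10 RPKM, a total of 74, the intervals of those not passing ran no lower than −0.37 and no higher than 0.28, so larger changes of these transcripts lay outside the intervals. The forest plot of members shows that nearly all estimates lie just below 0.

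**Figure D1:**
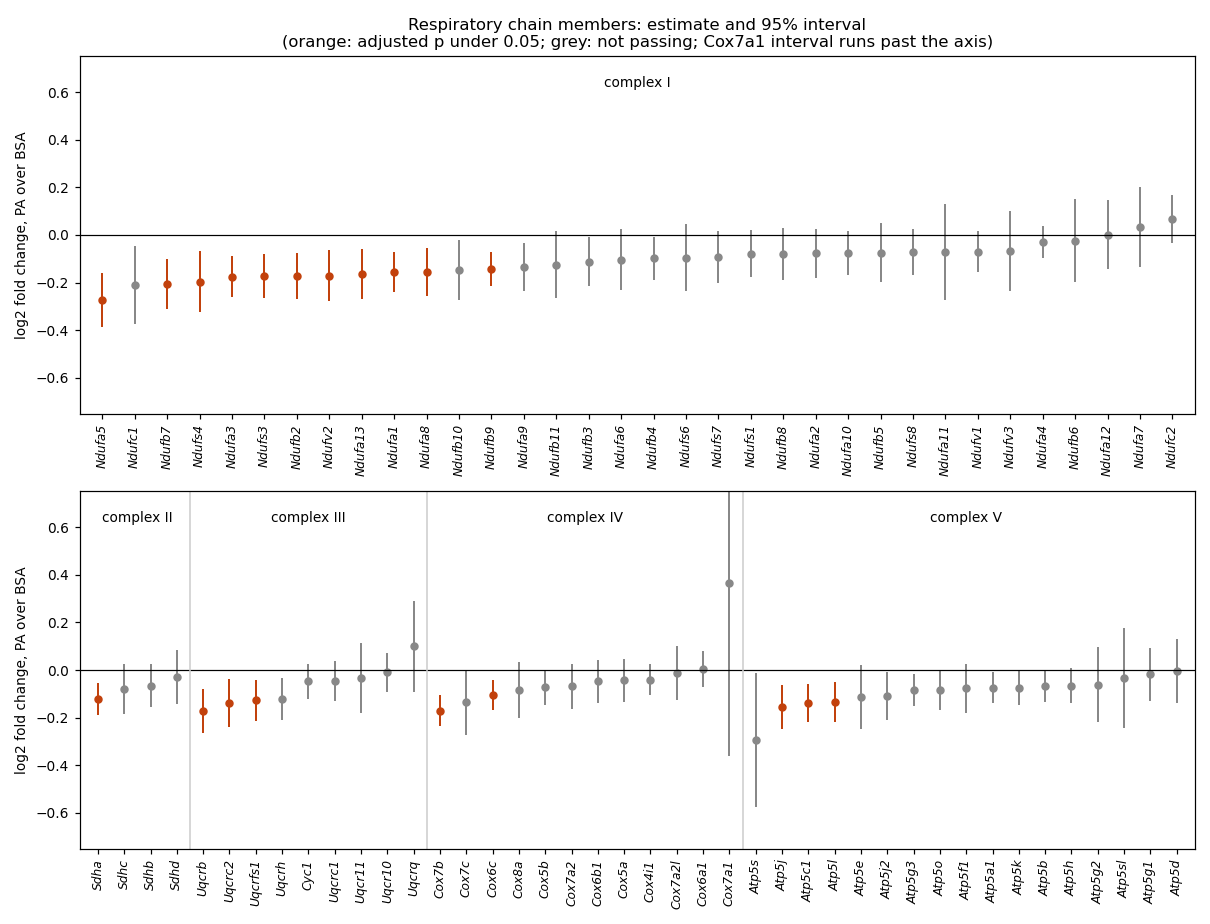
Log2 fold change of tested members, PA over BSA, with the 95% interval from limma (3 libraries per group), grouped by complex; orange members had an adjusted p under 0.05. The 20 orange members all lie below 0, between −0.10 and −0.27, and most grey estimates are negative too.

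Summed over its members, each complex had a lower mean with PA, with groups that overlapped in complex III. The 85 genes together had 11398, 11279.8 and 11332.1 RPKM in PA-treated PTECs, against 12062.6, 12004.5 and 11765.2 RPKM in BSA-treated PTECs, a difference of −5.09%. All PA libraries were thus below all BSA libraries, with BSA replicate 3 nearest to them. Complex I had 3159.4, 3135.9 and 3106 RPKM with PA and 3375.9, 3387.4 and 3295.4 RPKM with BSA (−6.54%). Complex II had 330.1, 327.2 and 324.6 RPKM with PA and 344.1, 348.6 and 340.5 RPKM with BSA (−4.96%). The groups did not overlap in either. Complex III had 1430.9, 1425.5 and 1453.7 RPKM with PA and 1504.9, 1512.7 and 1416 RPKM with BSA (−2.79%), and here the groups overlapped, since BSA replicate 3 was the lowest library of all. Complex IV had 2552.8, 2521.6 and 2564.2 RPKM with PA and 2685.6, 2631.4 and 2671.2 RPKM with BSA (−4.38%). Complex V had 3924.8, 3869.6 and 3883.6 RPKM with PA and 4152.2, 4124.5 and 4042.2 RPKM with BSA (−5.2%). The groups did not overlap in these either. The sums are given without a test. In share of all summed RPKM the members took 2.551%, 2.509% and 2.51% in the PA libraries and 2.637%, 2.631% and 2.578% in the BSA libraries. All genes together summed to 446732, 449583 and 451484.9 RPKM with PA and to 457409.2, 456238.9 and 456399.9 RPKM with BSA. This total was thus lower in every PA library too. Its part in the sums of the other lists was not tested. Of the other lists, complex I assembly factors summed to 186, 190.9 and 184.4 RPKM with PA and 203.8, 195.7 and 201.1 RPKM with BSA (−6.54%), and citric acid cycle genes to 1567.1, 1569.4 and 1566.1 RPKM with PA and 1588.3, 1589.1 and 1579.9 RPKM with BSA (−1.15%), both with groups that did not overlap. The summed differences of protein import and of housekeeping genes, whose groups overlapped, were 0.62% and −4.12%.

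**Figure D2:**
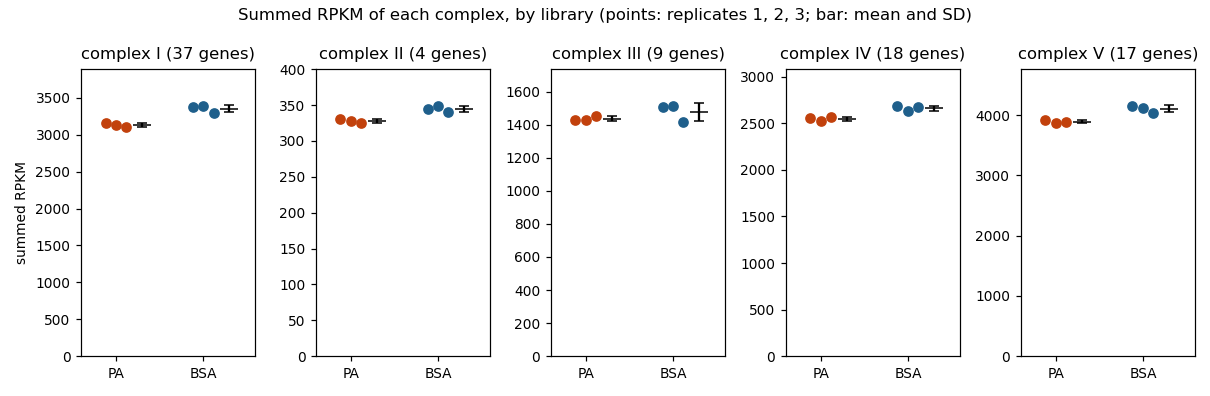
Summed RPKM of the members of each complex in each library, PA left of BSA, with points for replicates 1, 2 and 3 and a bar for the mean and SD (n = 3); each axis starts at 0. The PA libraries lie below the BSA libraries in complexes I, II, IV and V, while in complex III BSA replicate 3, at 1416 RPKM, lies below the PA libraries.

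Complex I, the NADH dehydrogenase, held 11 of the 20 members that fell. Of its 35 tested members 31.4% were thus lower, beside 9.52% of all genes tested. The other 24 did not pass and none rose (median log2 fold change −0.10). Among genes that are no members and had a mean of at least 15 RPKM, 16.77% were lower under 1000 bases. From 1000 to 2000 bases that share was 13.13%. Ndufa5, an accessory subunit of the arm that reaches into the matrix, had the largest fall among members past the test, with 58.8, 61.4 and 60.1 RPKM in PA-treated PTECs, against 71.95, 68.6 and 77.5 RPKM in BSA-treated PTECs. The lowest BSA library was above the highest PA library, and the log2 fold change was −0.27 (with a standard error, SE, of 0.047, adjusted p = 0.00680 from limma). Ndufb7, an accessory subunit on the side of the intermembrane space, had 135, 133 and 128 RPKM in PA-treated PTECs, against 155, 159 and 144 RPKM in BSA-treated PTECs (log2 fold change −0.21, adjusted p = 0.0145 from limma). Ndufs4, an accessory subunit near the NADH-binding module whose loss in mice causes a fatal encephalopathy, was among the lowest members, at 27.1, 29.6 and 29.9 RPKM in PA-treated PTECs, against 32.2, 32.1 and 35.03 RPKM in BSA-treated PTECs (log2 fold change −0.20, adjusted p = 0.0389 from limma). In each of these 3 genes the groups did not overlap.
Ndufa3, a small accessory subunit of the membrane arm, had 74.4, 76.1 and 70.4 RPKM with PA, against 82.7, 83.3 and 83.3 RPKM with BSA, and its BSA libraries agreed within 1 RPKM, closer than the counting error of their reads. Its log2 fold change was −0.18 (SE 0.036, adjusted p = 0.0128 from limma). Ndufb2, an accessory subunit of the distal membrane arm, had 61.1, 58.5 and 58.4 RPKM with PA, against 68.2, 63.8 and 68.6 RPKM with BSA (log2 fold change −0.17, adjusted p = 0.0202 from limma). Both were lower in every PA library than in any BSA library. The remaining 6 that fell were the accessory subunits Ndufa1, Ndufa8, Ndufa13 and Ndufb9 and the core subunits Ndufs3 and Ndufv2, with log2 fold changes of −0.16, −0.16, −0.16, −0.14, −0.17 and −0.17. Here too all PA libraries were below all BSA libraries.
The nuclear-encoded core subunits carry the flavin and the iron-sulfur clusters through which electrons run from NADH to ubiquinone. Among them, Ndufv2, which holds a cluster beside the flavin, and Ndufs3, part of the module that meets ubiquinone, fell. Ndufs3 had 62.6, 59.95 and 58.1 RPKM with PA, against 66.1, 67.9 and 69.4 RPKM with BSA. Ndufs1, Ndufs7, Ndufs8 and Ndufv1 had log2 fold changes from −0.09 to −0.07, and none of these passed the test. Of 28 accessory subunits tested, 9 fell (32.1%), and 25 had a negative log2 fold change. Over all genes tested, 9.52% were lower and 59.1% had a negative log2 fold change. Ndufc1 had an estimate as low as those past the test, at −0.21, but its libraries were wider apart, with 39.6, 46.8 and 41.5 RPKM with PA, against 50.1, 51.7 and 46.04 RPKM with BSA, so that the groups overlapped (adjusted p = 0.0669 from limma). The positive estimates in complex I were those of Ndufc2 (0.07, 95% interval −0.03 to 0.16), Ndufa7 (0.03) and Ndufa12 (0.002). Ndufa7 and Ndufa12 turned negative without BSA replicate 3, at −0.05 and −0.07, and none of the 3 passed the test. Ndufs5, a subunit of the intermembrane side, is listed at 0 in all libraries, and its level is not known from this table.

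Complex II, succinate dehydrogenase, also belongs to the citric acid cycle and has no subunit from mitochondrial DNA. Sdha, the flavoprotein that oxidizes succinate, fell, with 74.8, 73.6 and 73.3 RPKM in PA-treated PTECs, against 80.5, 80.3 and 80.2 RPKM in BSA-treated PTECs. The libraries within each group were close, with a within-group SD of 0.011 on the log2 scale, below the 0.022 of their counting error. The groups did not overlap, and the log2 fold change was −0.12 (SE 0.027, adjusted p = 0.0196 from limma). Sdhb, the iron-sulfur subunit, had 109, 107 and 108 RPKM in PA-treated PTECs, against 114, 117 and 108 RPKM in BSA-treated PTECs, where BSA replicate 3 lay among the PA libraries. Its log2 fold change was −0.07 with a 95% interval of −0.15 to 0.02 (adjusted p = 0.248 from limma), and without BSA replicate 3 it was −0.10 (adjusted p = 0.0308 from limma). Sdhc, a membrane anchor that binds heme together with Sdhd, had 78.1, 72.1 and 71.2 RPKM in PA-treated PTECs, against 79.5, 78.9 and 75.6 RPKM in BSA-treated PTECs. Sdhd, the other anchor, had 68.7, 74.7 and 71.7 RPKM in PA-treated PTECs, against 70.1, 72.3 and 77.1 RPKM in BSA-treated PTECs. The groups overlapped in both anchors, and their 95% intervals were −0.18 to 0.02 and −0.14 to 0.08 on the log2 scale.

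Of the 9 members of complex III, the cytochrome bc1 complex, 3 fell (33.3%, beside 9.52% of all genes tested). Among genes that are no members and had at least 15 RPKM, 16.77% under 1000 bases were lower. From 1000 to 2000 bases that share was 13.13%. Uqcrb, a small subunit near the ubiquinone site, had 102, 96.8 and 102 RPKM in PA-treated PTECs, against 108, 115 and 115 RPKM in BSA-treated PTECs (log2 fold change −0.17, SE 0.038, adjusted p = 0.0176 from limma). Uqcrc2, one of the large core proteins, had 47.2, 47.6 and 49.4 RPKM in PA-treated PTECs, against 50.4, 54.7 and 53.8 RPKM in BSA-treated PTECs (log2 fold change −0.14, adjusted p = 0.0492 from limma). Uqcrfs1, the Rieske iron-sulfur protein, had 87.5, 82.8 and 87.4 RPKM in PA-treated PTECs, against 91.5, 94.1 and 95.7 RPKM in BSA-treated PTECs (log2 fold change −0.13, adjusted p = 0.0398 from limma). The groups did not overlap in any of the 3. Uqcrh, the acidic hinge protein, missed the threshold at an adjusted p of 0.0506 from limma, with a log2 fold change of −0.12. The heme protein cytochrome c1, encoded by Cyc1, had a log2 fold change of −0.05 (95% interval −0.12 to 0.02), and Uqcrc1, the other core protein, −0.05.
Uqcrq, a membrane subunit of complex III and its most abundant transcript, had the one positive estimate of the complex. It had 278, 272 and 287 RPKM with PA, against 281, 278 and 226 RPKM with BSA, so that BSA replicate 3 alone was low while the other BSA libraries were among the PA libraries. The log2 fold change was 0.10 (SE 0.08, adjusted p = 0.415 from limma), and without BSA replicate 3 it was −0.005, the other way. The summed difference of complex III without that library was −4.78%.

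Complex IV, cytochrome c oxidase, had 2 members that fell among 12 tested (16.7%, beside 9.52% of all genes tested). Genes that are no members, with a mean of at least 15 RPKM, had like shares. These were 16.77% under 1000 bases and 13.13% from 1000 to 2000 bases, the class of Cox7b and Cox7a2l (1001 and 1149 bases). Cox7b, a small subunit around the catalytic core and X-linked like Ndufa1, had 102, 103 and 104 RPKM in PA-treated PTECs, against 116, 115 and 117 RPKM in BSA-treated PTECs. These groups were the most clearly set apart of the chain by the test, with a log2 fold change of −0.17 (SE 0.027, adjusted p = 0.00462 from limma). However, its within-group SD was 0.015 on the log2 scale, below the 0.031 set by the counting error of its reads. Cox6c, another small membrane subunit, had 298, 300.2 and 296 RPKM in PA-treated PTECs, against 317, 319.9 and 323 RPKM in BSA-treated PTECs (log2 fold change −0.10, SE 0.025, adjusted p = 0.0254 from limma). The groups did not overlap in either gene. For Cox6c too the within-group SD, 0.013, was below the counting error of 0.026. Cox7c had a lower estimate than Cox6c, −0.14, but did not pass, and BSA replicate 3 was high, with 155, 162 and 155 RPKM with PA, against 164, 165 and 189.6 RPKM with BSA (adjusted p = 0.131 from limma). Without that library it was −0.07 (adjusted p = 0.118 from limma). The other subunits without isoforms in this list, Cox5a and Cox5b, had log2 fold changes of −0.04 and −0.07 and did not pass.
Several complex IV subunits come as a widely expressed form and a form of muscle, lung or testis, and these PTECs expressed the first kind almost exclusively in both groups. Cox4i1, the general form, had 487, 491 and 498 RPKM in PA-treated PTECs, against 514, 503 and 502 RPKM in BSA-treated PTECs. Cox4i2, the lung form that is raised by low oxygen in other cells, had at most 0.389 RPKM. Cox6a1, the liver form, had 323, 319.7 and 316 RPKM in PA-treated PTECs, against 320.2, 327 and 309 RPKM in BSA-treated PTECs, so that the groups overlapped fully (log2 fold change 0.00, 95% interval −0.07 to 0.08). Cox6a2, the heart and muscle form, had at most 0.141 RPKM. Cox7a2 had 92.6, 94.95 and 102 RPKM in PA-treated PTECs, against 102, 102 and 99.8 RPKM in BSA-treated PTECs, and the muscle form Cox7a1 between 5 and 15 reads per library, at 1.62, 1.23 and 1.41 RPKM in PA-treated PTECs, against 0.819, 1.90 and 0.773 RPKM in BSA-treated PTECs. Cox7a1 was the one member called higher in any alternative fit, without BSA replicate 2, and at so few reads its level was not measured well enough to compare. Cox7a2l, a related protein that joins complexes III and IV into supercomplexes, had 132, 123 and 123 RPKM in PA-treated PTECs, against 133, 128 and 119.9 RPKM in BSA-treated PTECs, with a 95% interval of the log2 fold change of −0.12 to 0.10. Cox8a, the general form of a small membrane subunit, had 404, 379.9 and 403 RPKM in PA-treated PTECs, against 428, 391 and 439.5 RPKM in BSA-treated PTECs, where the groups overlapped. Cox6b1, the general form of a subunit facing the intermembrane space, had a log2 fold change of −0.05 (95% interval −0.14 to 0.04). Its counterpart of testis, Cox6b2, had at most 0.0752 RPKM, and Cox7b2, Cox8b and Cox8c are listed at 0 in all libraries. At these levels a shift between the forms was not detectable.
Ndufa4 was grouped with complex I by its name, although its protein was later assigned to complex IV. It was the most abundant Nduf transcript, with 324, 316 and 321 RPKM in PA-treated PTECs, against 331, 326 and 322 RPKM in BSA-treated PTECs, and its log2 fold change of −0.03 did not pass (95% interval −0.09 to 0.03). Its paralog Ndufa4l2, which low oxygen induces in other cells, had at most 0.155 RPKM in any library.

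Of the 17 members of complex V, the ATP synthase, 3 fell (17.6%). The share was 9.52% over all genes tested. Over genes that are no members and had at least 15 RPKM, it was 16.77% under 1000 bases. From 1000 to 2000 bases it was 13.13%. Atp5c1 (1800 bases), Atp5b, Atp5f1 and Atp5s lie in that second class, and Atp5a1 and Atp5sl are longer. All 17 had negative log2 fold changes, beside 59.1% of all genes tested. Atp5c1, the γ subunit that turns inside the catalytic head, had 126, 132 and 128 RPKM in PA-treated PTECs, against 142, 138 and 146 RPKM in BSA-treated PTECs (log2 fold change −0.14, SE 0.033, adjusted p = 0.0237 from limma). Atp5j, the F6 subunit of the stalk at the side, had 90.5, 95.4 and 94.5 RPKM in PA-treated PTECs, against 104, 100.1 and 108 RPKM in BSA-treated PTECs (log2 fold change −0.16, SE 0.039, adjusted p = 0.0270 from limma). Atp5l, the g subunit where the enzymes pair in the membrane, had 157, 152 and 156 RPKM in PA-treated PTECs, against 165, 177 and 167 RPKM in BSA-treated PTECs (log2 fold change −0.13, adjusted p = 0.0329 from limma). In all 3 the PA libraries were below the BSA libraries.
The catalytic head itself is built of the α and β subunits. Atp5b, the β subunit and the most abundant transcript of all members, had 906, 894 and 906 RPKM in PA-treated PTECs, against 939.6, 935 and 962 RPKM in BSA-treated PTECs, and Atp5a1, the α subunit, 392, 398 and 395 RPKM with PA, against 422, 416 and 409 RPKM with BSA. The groups did not overlap in either, yet the differences were small, with a log2 fold change of −0.07 in each, and did not pass (adjusted p = 0.108 and 0.0847 from limma). The c ring, which rotates as protons pass, is encoded by 3 genes whose mature protein is the same. Atp5g2 had 369.6, 367 and 364 RPKM in PA-treated PTECs, against 409, 403 and 339.7 RPKM in BSA-treated PTECs, with BSA replicate 3 below all other libraries. Atp5g3 had 349, 345 and 337 RPKM in PA-treated PTECs, against 365, 363 and 366 RPKM in BSA-treated PTECs, where the groups did not overlap (log2 fold change −0.08, adjusted p = 0.0610 from limma). Atp5g1 had 119.8, 113 and 126 RPKM in PA-treated PTECs, against 126, 119 and 118 RPKM in BSA-treated PTECs, where they did. Without BSA replicate 3 the log2 fold change of Atp5g2 was −0.15 (adjusted p = 0.00399 from limma), against −0.06 with all libraries (adjusted p = 0.549 from limma). The remaining members were Atp5d, Atp5e, Atp5f1, Atp5h, Atp5j2, Atp5k and Atp5o, with log2 fold changes from −0.11 to −0.004, of which none passed. Atp5s and Atp5sl carry the name but are not structural subunits of the enzyme. They were low, at means of 1.95 ± 0.191 and 3.94 ± 0.217 RPKM in PA-treated and 2.41 ± 0.275 and 4.05 ± 0.395 RPKM in BSA-treated PTECs (SD, n = 3 libraries each), and neither passed.

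**Figure D3:**
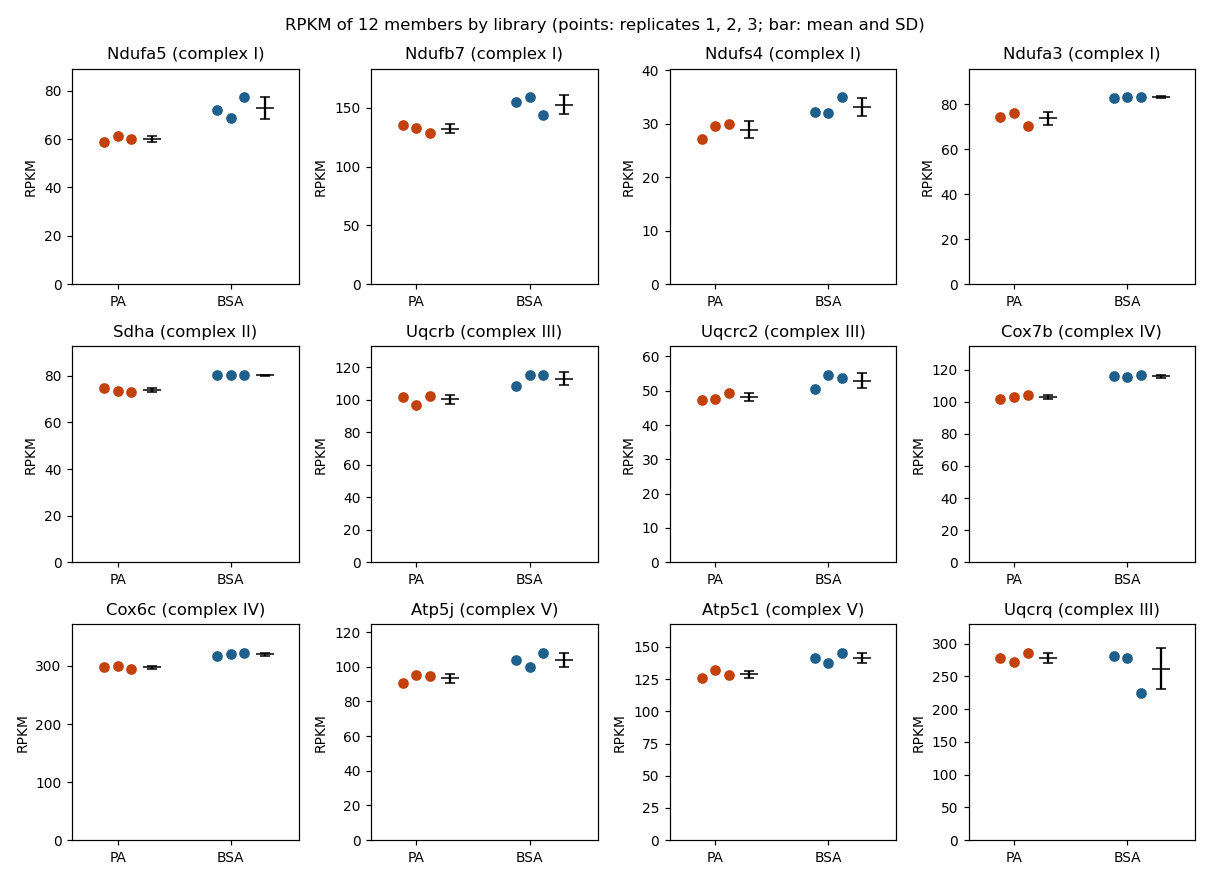
RPKM of 12 members in each library, PA left of BSA, with points for replicates 1, 2 and 3 and a bar for the mean and SD (n = 3); each axis starts at 0. In the 11 members that fell, all PA points lie below all BSA points, with a gap that is small beside the level, whereas in Uqcrq, which did not pass, BSA replicate 3 is the lowest point.

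The number of members that fell depended on single libraries and on the scaling. It was 31 without BSA replicate 3, 11 without BSA replicate 1, 8 without BSA replicate 2, and 11, 4 and 6 without PA replicate 1, 2 and 3, against 20 with all libraries. Of the 20, 17 were also among the 31. The shares of all genes called lower moved too, and were 14.1% without BSA replicate 3 and 3.35% without PA replicate 2. With median-of-ratios scaling 10 members fell, with 0 in complexes II and V, and with equal RPKM totals 11, where 7.07% and 6.36% of all genes were lower. Over all genes these scalings gave 825 lower and 1468 higher, and 742 lower and 1463 higher, against 1111 lower and 1302 higher as reported. Without the variance trend of limma 5 fell, where 6.43% of all genes were lower. Ndufa5 and Cox7b fell in each of the 19 alternative fits, Ndufa3 in 18, Ndufb7 and Ndufb9 in 16 and Uqcrb in 15, and no member that fell changed direction in any of them. The other 14 fell in 7 to 14 of the 19. The bar plot of settings shows the share of members above that of all genes in every fit except the one with the length trend removed, and close to it without the variance trend, at 6.49% and 6.43%.

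**Figure D4:**
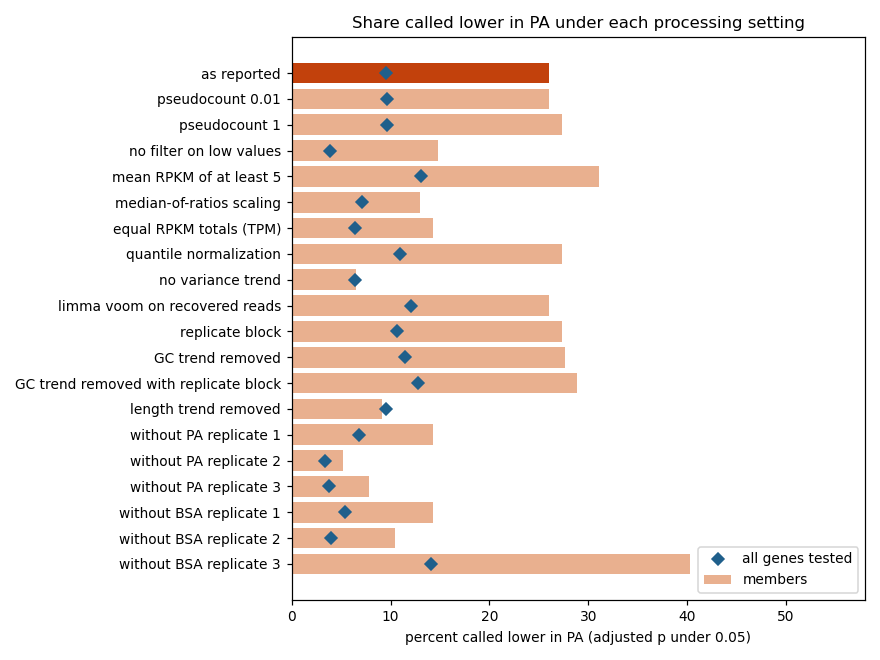
Percent of members called lower in PA (bars) and of all genes tested called lower (diamonds), at an adjusted p under 0.05 from limma, as reported and under 19 alternative settings. As reported the bar is at 26% and the diamond at 9.52%, and with the length trend removed they are at 9.09% and 9.55%.

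The members are short genes, and short genes were lower with PA across the table. The median length behind their RPKM values was 739 bases, against 2813 for all genes tested, while their median GC content was 50.2%, against 49.8%. Among all genes under 1000 bases, 11.82% were lower and 4.73% higher, with a median log2 fold change of −0.08 and 66.29% of the estimates negative (1142 genes), and among those over 4000 bases 7.81% were lower and 13.64% higher, with a median of −0.02 (3417 genes). The 49 members under 1000 bases had a median of −0.08, with 44 negative (89.8%), and 12 fell. Genes of that length that are no members and had a mean of at least 15 RPKM had a median of −0.08 too (507 genes), and 16.77% of them were lower. The 23 members of 1000 to 2000 bases had a median of −0.08, of which 7 fell (30.43%), while other genes of that length and level had a median of −0.04 (1287 genes), and 13.13% of them were lower. With the length trend of each library removed, 7 members fell (9.09%), where 9.55% of all genes were lower, and 62 of 77 log2 fold changes were negative, where 59.8% of all genes had a negative one. The median of the members was then −0.05, which is 0.011 below that of all genes, against 0.044 below as reported. The length trend was opposite in the groups: the correlation of a library's deviations with log length was 0.055, 0.026 and 0.069 in the PA libraries and −0.048, −0.079 and −0.024 in the BSA libraries (across 11671 genes, which are not independent replicates). Length and treatment cannot be told apart by these libraries alone.

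**Figure D5:**
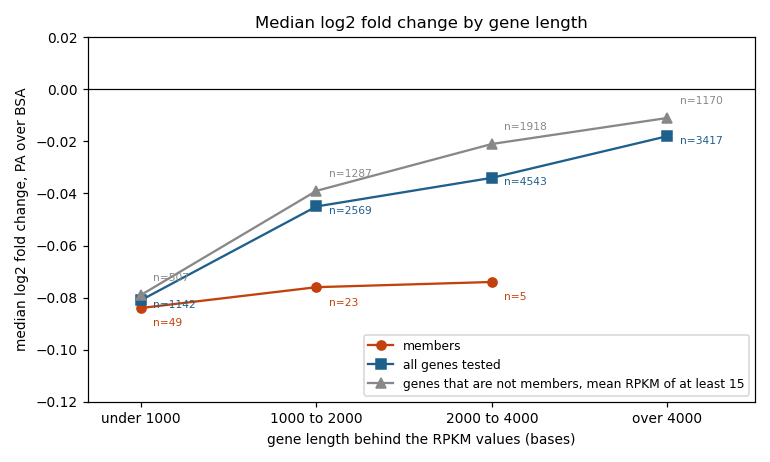
Median log2 fold change, PA over BSA, by gene length for members, for all genes tested and for genes that are no members with a mean of at least 15 RPKM; n is the number of genes. Under 1000 bases the 3 medians lie close together, at −0.084, −0.081 and −0.079, and from 1000 to 2000 bases the 23 members, at −0.076, lie below both other sets, while the last point of the members rests on 5 genes.

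Other mitochondrial genes were mostly not past the test, and beside 9.52% lower and 11.2% higher of all genes tested several lists had a like share. The shares lower were 9.09% for assembly factors of complexes II to V and for cristae organization, 6.9% for protein import, 12.5% for maintenance and transcription of mitochondrial DNA and 5.26% for the citric acid cycle, so the genes named from these lists describe single transcripts and not the lists. For complex I assembly factors the share was 18.8%. Of 7 subunits and related genes that the naming rule misses, 3 fell: Ndufab1, the acyl carrier protein of complex I, Atpif1, which inhibits ATP synthase running in reverse, and 2010107E04Rik, with log2 fold changes of −0.13, −0.20 and −0.11. Of 16 assembly factors of complex I, 3 fell (Ndufaf1, Ndufaf7 and Tmem70) and 1 rose. The one that rose, Tmem126b, needed to build the membrane arm, had 6.32, 8.25 and 8.41 RPKM in PA-treated PTECs, against 5.85, 5.43 and 6.04 RPKM in BSA-treated PTECs (log2 fold change 0.39, adjusted p = 0.0420 from limma), and the groups did not overlap. Of 33 assembly factors of complexes II to V, 3 fell and none rose. Cox19, a copper-related assembly factor of complex IV, fell more than any member of the chain that passed the test, with 29.1, 25.2 and 25.7 RPKM in PA-treated PTECs, against 35.6, 33.8 and 33.00 RPKM in BSA-treated PTECs (log2 fold change −0.36, SE 0.061, adjusted p = 0.00601 from limma). Bcs1l, which inserts the Rieske protein into complex III, and Atpaf1, which helps to build the ATP synthase head, had log2 fold changes of −0.27 and −0.21.
In the citric acid cycle 1 of 19 genes fell, Fh1, the fumarase, at −0.17, and of 12 genes of coenzyme Q synthesis none passed in either direction. Of 7 other enzymes that feed electrons to ubiquinone, 1 rose. This was Etfdh, which takes up the electrons of fatty acid oxidation, with 22.9, 19.8 and 21.5 RPKM in PA-treated PTECs, against 18.9, 18.6 and 18.5 RPKM in BSA-treated PTECs (log2 fold change 0.20, adjusted p = 0.0429 from limma). Of 16 genes that maintain and transcribe mitochondrial DNA, Lrpprc, which stabilizes mitochondrial mRNAs, rose (0.17), while its binding partner Slirp and Mterf4 fell (−0.15 and −0.29). Tfam, the main packaging and transcription factor of mitochondrial DNA, had a log2 fold change of −0.08 and did not pass. Of 11 genes of cristae organization 1 fell, Mtx2 (−0.13). Of 29 genes of protein import, the receptor gene Tomm20 rose (0.20), and Tomm7 and Dnajc19 fell (−0.13 and −0.23).
Of 9 regulators of mitochondrial biogenesis tested, Nfe2l2 rose (log2 fold change 0.27, adjusted p = 0.00244 from limma). It had 45.2, 42.2 and 43.9 RPKM in PA-treated PTECs, against 36.6, 36.7 and 35.3 RPKM in BSA-treated PTECs. Gabpb1, a subunit of the ETS factor GABP, fell (−0.21), while its partner Gabpa and Nrf1 did not pass (−0.03 and −0.05). Ppargc1a, the coactivator PGC-1α, was too low to test in both groups, at means of 0.33 RPKM with PA and 0.347 RPKM with BSA. Of 13 mitochondrial stress proteins, Lonp1, the matrix protease that clears damaged proteins, rose, with 105, 103 and 103 RPKM in PA-treated PTECs, against 84.3, 84.2 and 79.8 RPKM in BSA-treated PTECs (log2 fold change 0.32, SE 0.033, adjusted p = 5.0e-04 from limma), and none fell. Hspd1, the matrix chaperonin, had a log2 fold change of −0.06 and did not pass. Of these 22 genes of other lists past the test, Cox19, Lonp1, Nfe2l2 and Tomm20 were called in every alternative fit. Actb, often used as a reference transcript, had a log2 fold change of −0.27, as large as that of Ndufa5, and Gusb, another one, 0.28, and both passed the test.

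Some members share their locus with another gene. Of 84 members found in GENCODE vM21, 37 overlap at least 1 other gene and 11 overlap one on the same strand. The libraries were made with a kit that keeps strand, but the sources used here do not give the strand setting of the counting. Of the 20 members that fell, 13 overlap another gene. In 4 of these, Atp5c1, Ndufa13, Ndufb2 and Ndufb9, at least 1 lies on the same strand (Gm23608 in Atp5c1 and Gm49356 in Ndufb9), where counting by strand would not separate the reads. The other 9 overlap on the other strand alone, such as Atp5j with Gabpa, Ndufa3 with Tfpt and Ndufs3 with Kbtbd4. How reads in the shared part were assigned is not known. The remaining 7, Ndufa5 and Cox7b among them, overlap no other gene.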

How the data were processed

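Messenger RNA of the PTECs was sequenced from stranded libraries. The authors called bases with bcl2fastq and aligned the reads with TopHat 2.1.1 and Bowtie2 to GRCm38. The sources used here do not name the read counter or its annotation. The deposited table holds RPKM values of each gene and library, as normalized by the authors. It also holds the authors' own log2 fold change, p-value, adjusted p-value and rank per gene from edgeR, which were not used. The value columns were matched to the labels by the initial of the treatment and the replicate number.

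In 100% of genes the RPKM values were whole multiples of a step, the value of 1 read (tolerance 1e-06). The steps gave the library sizes, gene lengths and reads used for depth and for limma voom. Since RPKM values are no counts, limma 3.58.1 (R 4.3.3) with a variance trend was run for the 11671 genes with a mean of at least 0.5 RPKM on log2(RPKM + 0.1), a scale that understates changes of low genes. The Benjamini-Hochberg adjustment ran over all of them, and intervals cover 95%. Of the 85 members, 8 were below the minimum: Cox4i2, Cox6a2, Cox6b2, Cox7b2, Cox8b, Cox8c, Ndufa4l2 and Ndufs5.

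Values in every library were given for up to 5 members of each complex that passed with the largest change and with groups that did not overlap. They were also given for the 4 subunits of complex II and for isoform families, where most low forms have only their highest value. Other members were chosen after their values were seen: Ndufs3, Ndufc1, Uqcrq, Cox7c, Atp5a1 and Atp5b. Of the other mitochondrial lists, Tmem126b, Cox19, Etfdh, Nfe2l2 and Lonp1 have values in every library. The remaining genes of these lists past the test have a log2 fold change only. The values of a single member are not reported here. The members and the lists were chosen with earlier results of these data known. Replicates differed beyond sampling noise (chi-square per degree of freedom 1.9 to 8.56), so none was treated as a duplicate. Same-numbered libraries did not deviate together. The fit was tested on simulated data, and the alternatives were other pseudocounts, filters and scalings, GC and length trends, voom, a replicate block and leaving out each library.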

Additional observations from a re-analysis of the deposited data

How the results depend on the processing

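The median of the members was negative in every fit, but its size and the number of calls did not hold. Against 20 members lower as reported, 12 were lower with no filter on low values, 10 with median-of-ratios scaling, 11 with equal RPKM totals, 5 without the variance trend, 7 with the length trend removed, 4 to 31 with 1 library left out and 0 when an absolute log2 fold change over 0.4 was asked for as well. With 1 library left out, 0 to 1 members were higher. The median log2 fold change of the members, −0.08 as reported, was −0.059 with median-of-ratios scaling, −0.056 with equal RPKM totals, −0.049 with the length trend removed and −0.098 to −0.072 with 1 library left out. The summed difference, −5.09% as reported, was −3.71% with median-of-ratios scaling and −3.52% with equal RPKM totals. The cause was not tested. Other pseudocounts, a minimum of 5 RPKM, quantile normalization, voom and the GC trend removed gave 20 to 23 members lower.

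The replicate numbers did not pair the samples: the correlation of deviations was 0.035, −0.036 and 0.094 for numbers 1, 2 and 3. With a replicate block 21 members were lower, of which 17 were among the 20, and with the GC trend removed in the same fit 22. Of the 57 members that did not pass, 17 were called in at least 1 alternative and 18 changed sign in at least 1 without a call. At these depths, 331 to 37887 reads per library for members over 10 RPKM, the median counting SD of a library was 0.034 on the log2 scale, beside a median within-group SD of 0.051, and in 12 of these 74 members it was at or above the within-group SD. Among these 12, Cox7b, Sdha, Cox6c, Ndufa1, Ndufa3, Ndufb2 and Ndufb9 passed the test, and Atp5g3, Atp5k, Ndufa4, Ndufb4 and Ndufc2 did not. The libraries of such members were as close as their counting error or closer. Their p-values rest also on the variance trend of limma over all genes tested, and not on this spread alone. In Cox7a1, with 5 to 15 reads, the counting SD was 0.507.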
